A study of Mus musculus with 9 samples.

Results

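The comparison was between fiPSC, which are induced pluripotent stem cells (iPSC) made from mouse fetal fibroblasts, and SSCiPSC, which are iPSC made from mouse spermatogonial stem cells (SSC). It used 6 of the 9 RNA-seq libraries of the series, 3 of fiPSC and 3 of SSCiPSC, and the 3 libraries of SSC were used for reference levels in the sorted testis fraction from which SSCiPSC were made. That fraction also held transcripts of other testis cells, such as Cyp11a1 of Leydig cells (96.1, 69.4 and 155 FPKM) and Cst12 of Sertoli cells (197, 271 and 206 FPKM). Values were FPKM, fragments per kilobase of transcript scaled to the mapped fragments of the library, listed for 54914 loci. Each locus took its gene name from its position among the genes of the mouse GRCm38 build, and the locus with the highest mean of the 9 libraries stood for each gene, which gave 12976 named genes. Of these, 10154 reached 1 FPKM in at least 3 of the 6 iPSC libraries and were tested.

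Donors of both kinds of cell carried the alleles Gt(ROSA)26Sortm1(rtTA*M2)Jae and Col1a1tm3(tetO-Pou5f1,-Sox2,-Klf4,-Myc)Jae, which express the reprogramming factors Oct4 (Pou5f1), Sox2, Klf4 and c-Myc when doxycycline is given. fiPSC came from male fibroblasts of single embryonic day 13.5 fetuses, and SSCiPSC from postnatal day 6 testis cells sorted for the surface marker Gfra1, as were the SSC libraries, which were not cultured to iPSC. Both iPSC were expanded from picked colonies with doxycycline and leukemia inhibitory factor (LIF), and the study withdrew doxycycline stepwise, whereas the labels name doxycycline (DOX) in the medium of all iPSC. The labels give passages 10 to 11 for both groups, and the study's methods give later ones. Before extraction, iPSC were sorted for SSEA1, a surface antigen of mouse pluripotent cells, to remove feeder fibroblasts. The sources do not say whether the libraries of a group came from separate lines, so p-values measure only the spread between these samples. Fibroblasts of origin had no library, and reads of the 4 transgene coding sequences cannot be told apart from those of the endogenous genes.

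Mouse pluripotent cells exist in a naive state, like the inner cell mass, that is kept by LIF signalling through Stat3 and by transcription factors such as Nanog, Esrrb, Tfcp2l1, Klf4 and Tbx3, and in a primed state, like the epiblast after implantation, in which factors such as Otx2 and the de novo DNA methyltransferase Dnmt3b are high. Both states express Pou5f1 and Sox2. Reprogramming erases the programme of the donor cell, and transcripts or methylation of that donor that persist in iPSC are known as residual memory. Male germ cells and fibroblasts also start from different imprints, since SSC carry paternal methylation on both alleles, whereas fibroblasts carry 1 paternal and 1 maternal allele.

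Estimated depth was similar in both groups, at 15800000, 13600000 and 14900000 fragments in SSCiPSC 1, 2 and 3 and 13000000, 17300000 and 15400000 in fiPSC 1, 2 and 3. A count of 3 fragments per kilobase then corresponds to between 0.174 and 0.231 FPKM, so values below this were near the detection floor, which covers counting error only. Depth of SSC was lower, at 1770000, 4620000 and 1380000 fragments, so 3 fragments per kilobase corresponded to 1.7, 0.65 and 2.17 FPKM there. All 6 iPSC libraries expressed the pluripotency genes Pou5f1 (658, 877 and 665 FPKM in SSCiPSC and 622, 579 and 695 in fiPSC), Sox2 (125, 169 and 131 and 120.4, 119.5 and 134) and Nanog, and Nanog was listed at 0 in all 3 SSC libraries.

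SSCiPSC 2 stood apart from all other iPSC in its Y-linked genes. Ddx3y, an RNA helicase of the Y chromosome, had 49.8, 0.223 and 37.3 FPKM in SSCiPSC and 32.6, 26.5 and 35.0 in fiPSC. For Eif2s3y, a translation initiation factor, the values were 54.1, 0.0741 and 48.0 and 39.7, 37.3 and 41.6. Uty, a histone demethylase family member, had 20.6, 0.0731 and 15.3 and 16.3, 17.1 and 17.9. The Y-linked genes Kdm5d and Zfy1 were listed at 0 in SSCiPSC 2 and lay between 5.46 and 7.58 FPKM and between 4.01 and 5.93 FPKM in the other 5 libraries. Among 6334 named genes with at least 10 FPKM in a library, 4 genes lay at least 4-fold above or below all other iPSC libraries in 1 library on the log2(FPKM + 1) scale, and all 4 were low in SSCiPSC 2, namely Eif2s3y, Ddx3y, Uty and the X-linked Mid1. Mid1, a microtubule-associated ubiquitin ligase that spans the boundary of the pseudoautosomal region in mice, had 9.80, 0.122 and 19.6 FPKM in SSCiPSC and 16.1, 10.2 and 14.3 in fiPSC. Hccs, the named gene next to it on the X, had 21.8, 18.6 and 19.7 FPKM in SSCiPSC and 17.8, 16.9 and 16.5 in fiPSC, so it was not low in SSCiPSC 2. Xist, the transcript that coats an inactive X, had 3.56, 1.99 and 3.41 FPKM in SSCiPSC and 3.15, 3.08 and 3.06 in fiPSC, with the lowest value also in SSCiPSC 2. The groups overlapped at all 8 Y-linked genes tested, of which 0 passed limma's adjusted p of 0.05 or had an unadjusted p below 0.05. List medians that moved without SSCiPSC 2 are given with and without it.

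**Figure D1:**
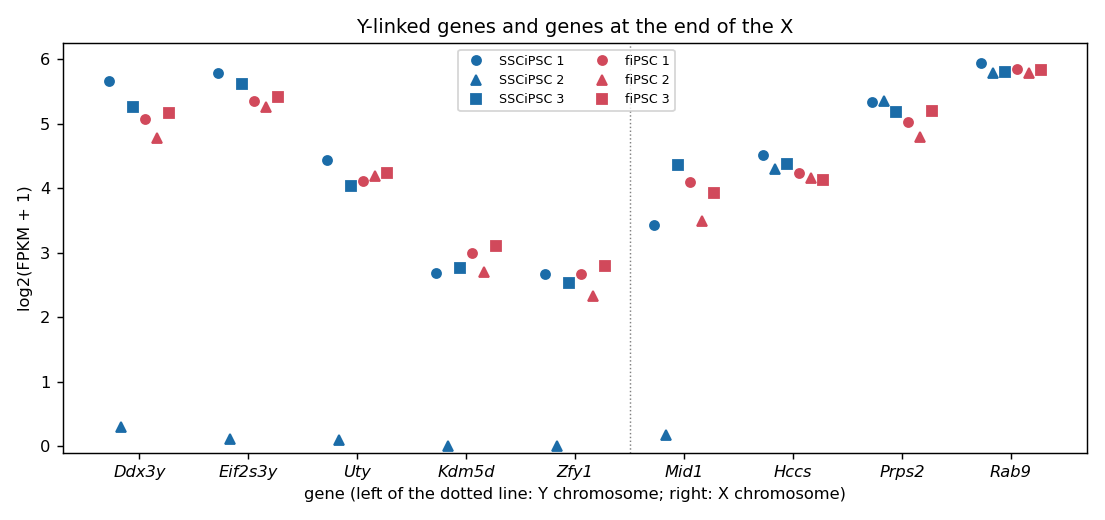
Levels of 5 Y-linked genes (left of the dotted line) and of 4 genes near the end of the X (right), as log2(FPKM + 1) in each of the 6 iPSC libraries (blue SSCiPSC, red fiPSC, symbols for libraries 1 to 3). The SSCiPSC 2 triangles lie at or near 0 for all 5 Y-linked genes and for Mid1, and with the other libraries for Hccs, Prps2 and Rab9.

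fiPSC and SSCiPSC differed at few loci when all loci were tested together. With limma on log2(FPKM + 1), 23 of 33948 loci passed an adjusted p of 0.05 (0.0678% of loci tested), 8 of them higher (0.0236%) and 15 lower (0.0442%) in fiPSC. Of the 23, 3 were named genes. Pttg1 and Cyct fell and 2610528J11Rik rose in fiPSC, and the other 20 loci had no gene name. Leaving out SSCiPSC 1, 2 or 3 gave 10, 4 and 2 loci, and leaving out fiPSC 1, 2 or 3 gave 3, 7 and 5. Part of this fall was fixed by the filter of 1 FPKM in 3 libraries, which 9 of the 23 loci no longer met without an SSCiPSC library and 7 without a fiPSC library. These 16 loci were below 1 FPKM in all libraries of 1 group, so they entered the test only through the group where they were high and had to differ, as did 1.53% of all loci tested. The other 7 loci, the 3 named genes among them, did not depend on the filter in this way. With each gene represented by 1 locus, so that 10154 genes were tested in place of 33948 loci, 49 genes passed (0.483%), 30 higher (0.295%) and 19 lower (0.187%) in fiPSC. That larger number rests on the libraries used: leaving out SSCiPSC 1 gave 114 genes, SSCiPSC 2 gave 61, fiPSC 2 or fiPSC 3 gave 3 each, and SSCiPSC 3 or fiPSC 1 gave 0. Before adjustment 1677 of the 10154 genes had a p below 0.05. All 3 libraries of fiPSC lay above all 3 of SSCiPSC for 927 genes tested (9.13%) and below them for 1451 (14.3%), and the median log2 fold change over all genes tested was -0.04. Among the 5924 genes with a group mean of at least 10 FPKM, 321 were higher and 1184 lower in fiPSC without overlap. Abundant genes thus lay lower in fiPSC more often, and higher less often, than all genes tested. The shares beside each gene list below are those of all genes tested and do not allow for this. Hereafter, fold changes are differences of mean log2(FPKM + 1), fiPSC minus SSCiPSC, with their standard error (SE).

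Pttg1 encodes securin, which holds separase inactive until anaphase. It had 263, 222 and 211 FPKM in SSCiPSC and 89.6, 85.0 and 84.5 FPKM in fiPSC. The highest fiPSC library lay far below the lowest SSCiPSC library, and the fiPSC libraries were nearly equal. Means were 232 ± 27.6 FPKM in SSCiPSC and 86.4 ± 2.82 FPKM in fiPSC (SD, n = 3 per group), and the log2 fold change was -1.41 (SE 0.12, adjusted p = 0.0126). Without SSCiPSC 1 it still passed (adjusted p = 0.0311 by limma), and with each of the other 5 libraries left out the adjusted p lay between 0.0751 and 0.144, with log2 fold changes from -1.47 to -1.39. SSC had 17.1, 37.5 and 33.4 FPKM, less than either iPSC. The locus was chr11:43420176-43426507 on the minus strand.

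Cyct encodes the cytochrome c of testis, which carries electrons in the respiratory chain of spermatids and sperm. It had 63.3, 41.3 and 42.1 FPKM in SSCiPSC and 10.2, 10.8 and 12.8 FPKM in fiPSC. The groups were well apart, and SSCiPSC 1 was the highest library. The log2 fold change was -2.001 (SE 0.19, adjusted p = 0.0269) at chr2:76353945-76360802 on the minus strand. The SSC libraries had 5.35, 18.97 and 9.53 FPKM, below every SSCiPSC library. The only named gene that rose in the test of all loci was 2610528J11Rik, a protein-coding gene at chr4:118527166-118530196 on the plus strand, with 1.90, 1.23 and 1.09 FPKM in SSCiPSC and 9.83, 6.87 and 8.65 FPKM in fiPSC. Its log2 fold change was 1.98 (SE 0.21, adjusted p = 0.0417), and all fiPSC libraries lay above all SSCiPSC libraries. Cyct also passed without SSCiPSC 1 (adjusted p = 0.0394 by limma) and had adjusted p from 0.116 to 0.212 with each other library left out, and 2610528J11Rik had 0.104 to 0.292 over the 6 libraries left out in turn. Neither changed direction. None of the 3 passed over all loci with the replicate number as a block or with all 9 libraries in the fit, whereas with 1 locus per gene and the block these 3 were the ones that passed.

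The other 46 genes passed with each gene represented by 1 locus and not in the test of all loci, with adjusted p between 0.0112 and 0.0494 over all 49. Their groups did not overlap, which also held for 927 and 1451 of all genes tested. Among those lower in fiPSC was Nanog, described with the pluripotency genes. Lama1, the alpha chain of laminin-111, had 7.89, 8.43 and 7.40 FPKM in SSCiPSC and 1.95, 1.78 and 2.66 in fiPSC (log2 fold change -1.52, SE 0.15, adjusted p = 0.0206). Lama5, the alpha chain of laminin-511, lay the other way, with 15.3, 15.8 and 11.9 FPKM in SSCiPSC and 29.1, 25.9 and 32.4 in fiPSC (log2 fold change 0.98, SE 0.14, adjusted p = 0.0428). The 2 laminin chains thus differed between the groups in opposite directions, and no library of either gene crossed into the other group.

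Kit, the receptor of stem cell factor and a marker of differentiating spermatogonia, had 42.4, 47.5 and 48.4 FPKM in SSCiPSC and 23.9, 27.8 and 26.0 in fiPSC (log2 fold change -0.81, SE 0.11, adjusted p = 0.0333). SSC had only 10.1, 10.1 and 8.86 FPKM of Kit, less than either iPSC. Mras, a Ras-related GTPase, had 17.9, 26.1 and 21.8 FPKM in SSCiPSC and 9.08, 7.16 and 8.97 in fiPSC (adjusted p = 0.0333). SSC had 28.7, 34.2 and 31.7 FPKM of Mras, above both iPSC, with SSCiPSC the nearer. Also lower in fiPSC were Ncam1, the neural cell adhesion molecule (means 10.5 FPKM in SSCiPSC and 4.18 in fiPSC), Jam2, a junctional adhesion molecule (56.7 and 26.7), and Ly75, an endocytic receptor (23.8 and 10.7). Lower too were the kinases Sgk1 (157 and 98.9 FPKM) and Yes1 of the Src family (80.7 and 49.3), the histidine ammonia-lyase Hal (12.8 and 5.89) and the glycosyltransferase B4galnt4 (24.6 and 14.7). The remaining genes on this side were Rcn1, a calcium-binding protein of the endoplasmic reticulum, Sap30l, a relative of a Sin3 histone deacetylase subunit, the zinc finger gene Zfp229, Sh3tc2, 1700057H21Rik and Gm12355, whose log2 fold changes lay between -1.23 for Sh3tc2 and -0.67 for Gm12355.

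Among genes higher in fiPSC, the largest fold change on the log2(FPKM + 1) scale was that of Klhl13, an X-linked adaptor of the Cul3 ubiquitin ligase. Klhl13 had 4.56, 6.65 and 3.96 FPKM in SSCiPSC and 44.5, 18.3 and 41.6 FPKM in fiPSC, a log2 fold change of 2.49 (SE 0.33, adjusted p = 0.0333). fiPSC 2 was well below the other fiPSC libraries, but still above every SSCiPSC library. SSC had 3.57, 3.92 and 3.35 FPKM, in the range of SSCiPSC. Bex4, also X-linked, had 11.8, 21.8 and 20.7 FPKM in SSCiPSC and 61.5, 53.7 and 52.8 in fiPSC (log2 fold change 1.62, SE 0.21, adjusted p = 0.0333). The homeobox genes Rhox6 and Rhox9 of the X-linked Rhox cluster had means of 1.17 and 1.07 FPKM in SSCiPSC and 5.97 and 4.76 FPKM in fiPSC. They are close paralogs, so the split of reads between them is uncertain.

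Cldn4, a claudin of tight junctions, had 28.2, 24.1 and 23.7 FPKM in SSCiPSC and 53.5, 43.3 and 54.1 in fiPSC (adjusted p = 0.0333). Cldn3, another claudin, had 1.89, 1.28 and 0.808 and 8.08, 5.36 and 7.45 FPKM (adjusted p = 0.0333). All fiPSC libraries were above all SSCiPSC libraries for both. Tjp3, a scaffold protein of tight junctions, had means of 11.5 FPKM in SSCiPSC and 24.3 in fiPSC, and the heparan sulfate proteoglycan Sdc4 had 24.9 and 50.4. Higher in fiPSC as well were Fgfr2, a receptor of fibroblast growth factors (0.930 and 3.93 FPKM), and the receptor Notch3 (6.54 and 13.4). So were the transcription factor Myb (4.78 and 12.5 FPKM), the homeobox gene Pbx4 (1.32 and 5.34) and Vrtn, which is known for setting vertebral number (0.653 and 4.30). Slc40a1, the iron exporter ferroportin, had 0.316 and 3.43 FPKM, Lgals9, a galectin, 5.09 and 14.4, and Setd7, a lysine methyltransferase, 4.52 and 9.27. The other genes on this side were Crip2, Lzts2, the phosphatase Ptp4a3, Ccdc102a, the actin regulator Eps8l2, Rhbdf1, Cdcp1, the spectrin Sptb, Phldb3, the tubulin polyglutamylase Ttll6, Igdcc4 and 1500015A07Rik, with log2 fold changes from 0.86 for Crip2 to 1.86 for 1500015A07Rik. Fgfr2, Slc40a1, Cdcp1, Phldb3 and Igdcc4 were below 1 FPKM in all SSCiPSC libraries, and Sh3tc2 in all fiPSC libraries. These 6 of the 49 genes passed the filter only through the group where they were high (0.877% of all genes tested did), so that they differed is no support, and their fold changes on this scale understate the ratio.

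**Figure D2:**
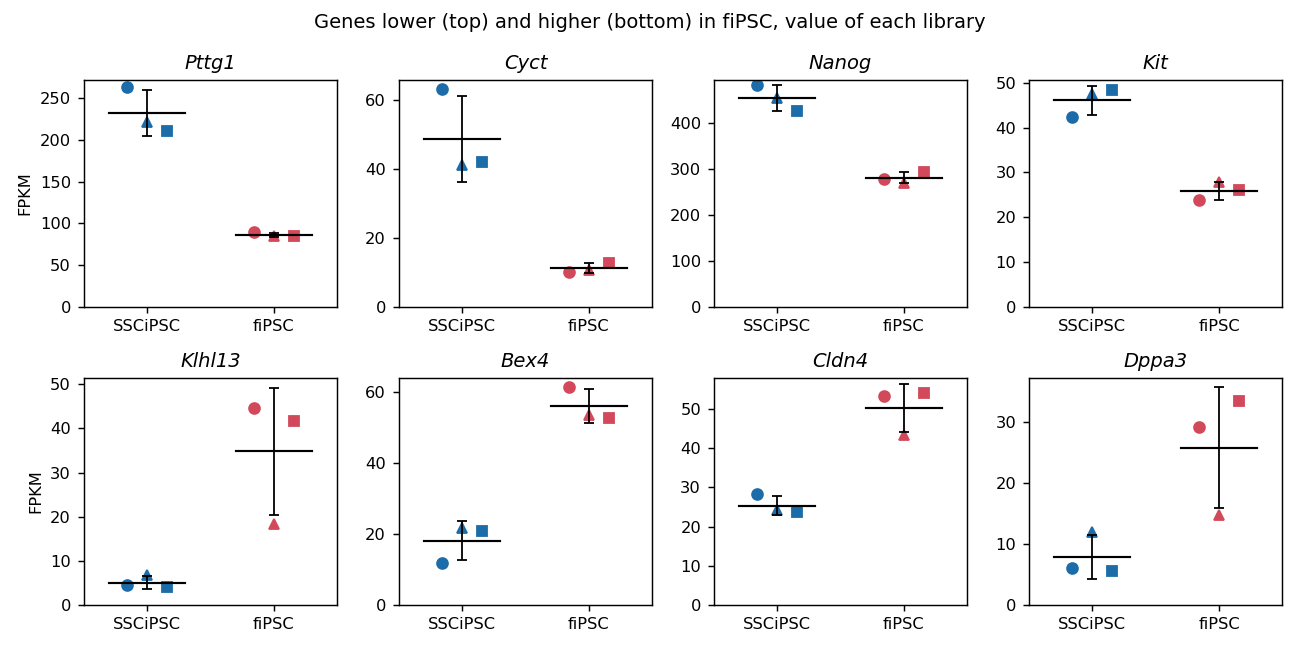
FPKM of 8 genes in each library (circle, triangle and square for libraries 1, 2 and 3), with the group mean (long line) and SD (bars, n = 3). All 3 fiPSC libraries lay below all SSCiPSC libraries for Pttg1, Cyct, Nanog and Kit and above them for Klhl13, Bex4, Cldn4 and Dppa3.

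By size alone, the 10 highest and 10 lowest fold changes among genes with a group mean of at least 10 FPKM and no overlap added 13 genes that passed neither test. From here on, an adjusted p is that over all loci unless 1 locus per gene is named. Higher in fiPSC were Esrp1, a splicing regulator of epithelial cells (2.33, 6.09 and 1.56 FPKM in SSCiPSC and 18.7, 11.7 and 16.6 in fiPSC, adjusted p = 0.184, and 0.0607 with 1 locus per gene), Ap1m2, a clathrin adaptor subunit (log2 fold change 1.64), Cldn9 (1.44), the potassium channel Kcnk1 (1.297), Bspry (1.29), 2610008E11Rik (1.27) and Dppa3. SSC had 22.8, 23.5 and 15.5 FPKM of Esrp1, near the fiPSC level. Lower in fiPSC were the dehydrogenase Dhrs7 (26.2, 8.88 and 19.7 FPKM in SSCiPSC and 5.62, 8.85 and 5.04 in fiPSC), the myosin Myo1f (-1.22 on the log2 scale), the noncoding transcripts Gm43803 (-1.25) and Gm30717 (-1.13), Tfcp2l1 and Tbx3. SSCiPSC 2 and fiPSC 2 were almost equal for Dhrs7, at 8.88 and 8.85 FPKM.

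Of the 20 unnamed loci that passed in the test of all loci, 17 had an interval of their own and were short, from 111 to 1531 bp with a median of 241 bp, and 3 shared an interval with other loci, the longest of 150381 bp. Of the 20, 19 had no strand, and 12 lay between genes, 7 in exons and 1 in an intron. At 9 of them all fiPSC libraries, and at 6 all SSCiPSC libraries, were listed at 0, so these 15 had met the filter only through the other group and are given as values, not as support for a difference. One of them was chr17:53702011-53702216, 104 bp from the pseudogene Rab5a-ps, which was listed at 0 in all SSCiPSC and had 25.6, 21.8 and 28.3 FPKM in fiPSC. The locus chr4:32964776-32965273 in the pseudogene Gm11942 was expressed in both groups, with 259, 243 and 203 FPKM in SSCiPSC and 27.0, 21.3 and 26.7 in fiPSC (adjusted p = 0.0011). A locus within the pseudogene Gm5637 on the X, chrX:60045124-60045239, was listed at 0 in SSCiPSC and had 128, 43.2 and 69.7 FPKM in fiPSC. At 116 bp it was shorter than the estimated fragment length of 140 to 160 bp in the iPSC libraries. FPKM of loci this short are uncertain and are not read as abundance. At the Gm11942 locus no fiPSC library reached the lowest SSCiPSC library. For the loci near Rab5a-ps and in Gm5637 the separation was fixed by the filter. Neighbouring loci on chromosome 1 were both lower in fiPSC. The locus chr1:161008122-161038680, which holds Gas5, a host gene of small nucleolar RNAs, and Zbtb37, had 229, 246 and 269 FPKM in SSCiPSC and 75.3, 69.1 and 86.3 in fiPSC (adjusted p = 0.00833). The locus chr1:161038848-161038983, 309 bp from Gas5, had 77.1, 55.5 and 32.0 FPKM in SSCiPSC and was listed at 0 in fiPSC. It met the filter only through SSCiPSC, so that it was lower in fiPSC is no support. At 136 bp it was also shorter than the estimated fragment length.

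Genes of the naive state were mostly lower in fiPSC. Of 24 listed naive genes, all were tested, 0 passed limma's adjusted p of 0.05 in either fit, and 13 had an unadjusted p below 0.05, where 1312 of the 10154 genes tested did so in the fit over all loci (12.9%). In 14 of the 24 all fiPSC libraries lay below all SSCiPSC libraries and in 2 above, where 14.3% and 9.13% of all genes tested did so. For the 5924 genes with a group mean of at least 10 FPKM, 1184 lay below and 321 above in this way. The median log2 fold change of the list was -0.43, against -0.04 for all genes tested. It stayed between -0.50 (without fiPSC 3) and -0.35 (without SSCiPSC 2) when each library was left out in turn, and was -0.34 after quantile normalization. Tfcp2l1, a factor downstream of Stat3, had 65.9, 104 and 69.0 FPKM in SSCiPSC and 30.7, 28.7 and 41.3 in fiPSC (log2 fold change -1.21, SE 0.21, adjusted p = 0.177, and 0.0568 with 1 locus per gene). SSCiPSC 2 was the highest library, and the lowest SSCiPSC library was still above the highest fiPSC library. Tbx3, a T-box factor that LIF induces, had 23.4, 45.8 and 33.8 FPKM in SSCiPSC and 14.4, 14.2 and 15.6 in fiPSC (log2 fold change -1.12, SE 0.23). Nr0b1 (Dax1), an orphan nuclear receptor, had 45.4, 65.5 and 58.0 and 26.5, 23.6 and 33.9 FPKM. For both genes every fiPSC library was below every SSCiPSC library.

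Other naive genes had smaller differences in the same direction. Esrrb, an estrogen-related receptor, had 221, 298 and 259.9 FPKM in SSCiPSC and 170.4, 179 and 195 in fiPSC (log2 fold change -0.51, SE 0.13). Prdm14, which represses de novo methylation genes, had 20.6, 14.9 and 16.1 and 8.71, 12.1 and 10.6 FPKM. Spp1 (osteopontin) had 388, 271 and 368 and 181, 222 and 188 FPKM, and Tcl1 had 109, 80.4 and 75.8 and 50.8, 63.7 and 61.1. All 4 were without overlap. Within the LIF pathway, the receptor Lifr had 29.0, 29.7 and 34.9 FPKM in SSCiPSC and 22.0, 23.3 and 24.4 in fiPSC, and its effector Stat3 had 24.8, 29.4 and 30.9 and 16.5, 19.2 and 22.8. The feedback inhibitor Socs3, a direct Stat3 target, had 84.7, 80.1 and 94.0 and 50.9, 44.0 and 72.2. The co-receptor Il6st differed little, with 37.5, 35.3 and 34.3 and 29.8, 33.7 and 34.2. Zfp42 (Rex1), Fgf4, Klf2 and Pecam1 overlapped between groups, with log2 fold changes of -0.06, 0.01, 0.10 and -0.10. Against the direction of the list stood Dppa3 (Stella), a maternal factor that protects against demethylation, with 6.06, 11.9 and 5.50 FPKM in SSCiPSC and 29.2, 14.7 and 33.5 in fiPSC (log2 fold change 1.59, SE 0.37, adjusted p = 0.225). fiPSC 2 and SSCiPSC 2 were the nearest libraries for Dppa3. Cdh1 (E-cadherin) was the other, with 88.6, 132 and 141 and 156, 149 and 141 FPKM, equal to 3 digits in SSCiPSC 3 and fiPSC 3.

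Among 14 tested genes of the core pluripotency network, Nanog and Fbxo15 were lower in fiPSC without overlap (14.3% of all genes tested) and the other 12 overlapped. Nanog had 483, 456 and 426 FPKM in SSCiPSC and 279, 270.2 and 295 FPKM in fiPSC. Its highest fiPSC library was well below its lowest SSCiPSC library. The log2 fold change was -0.69 (SE 0.09), with an adjusted p of 0.0334 with 1 locus per gene and 0.121 over all loci. Pou5f1 had a log2 fold change of -0.20 (SE 0.15) and Sox2 of -0.17 (SE 0.14), with SSCiPSC 2 the highest library for both. Fbxo15, a target of Oct4 and Sox2, had 195, 158 and 158 FPKM in SSCiPSC and 116, 116 and 128 in fiPSC (log2 fold change -0.50, adjusted p = 0.243). The median of the list was -0.17, but it was 0.09 without SSCiPSC 2, which was the highest library for 9 of the 14 genes, -0.32 without SSCiPSC 1 and -0.038 without fiPSC 2. fiPSC 2 was the lowest for 8.

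The bases before the Nanog start are shown because Nanog was the core factor with the largest difference, while Pou5f1, whose protein binds the octamer, overlapped between the groups. This stretch of RefSeq sequence (GRCm38.p6, chr6:122707384-122707450, plus strand) holds the letters TTTGCAT in capitals, 75 to 69 bases before the first of 2 listed starts. These letters are shorter than a full octamer.
Nanog: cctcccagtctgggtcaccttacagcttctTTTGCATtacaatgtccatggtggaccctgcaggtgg
The letters TTTGCAT or their reverse complement ATGCAAA were found on either strand in 4.63% of 32851 promoters of 300 bases. Of the 17 naive genes with a promoter in that table, 2 held them, Spp1 and Zfp42, where 5.24% of all 27025 genes with a promoter did.

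Genes of the primed state had a median log2 fold change of 0.33 over 15 tested of 26 listed genes. Of the 15, 4 were higher in fiPSC without overlap (9.13% of all genes tested) and 1 lower (14.3%), 0 passed limma's adjusted p of 0.05, and 4 had an unadjusted p below 0.05 (12.9% of all). The median was 0.12 without SSCiPSC 1. Otx2, which directs enhancers to the primed state, had 24.5, 21.3 and 17.3 FPKM in SSCiPSC and 34.2, 24.6 and 38.6 in fiPSC (log2 fold change 0.59, SE 0.20, adjusted p = 0.341). SSCiPSC 1 and fiPSC 2 were almost equal. Krt18, a keratin, had 7.36, 4.81 and 4.01 and 14.3, 10.4 and 11.0 FPKM (log2 fold change 1.03, SE 0.23). Nodal, the ligand that keeps the primed state through Smad2, had 36.0, 34.6 and 34.3 and 38.6, 44.6 and 41.0 FPKM. Zic2, Zic5 and Tead2 overlapped between the groups, with log2 fold changes of 0.02, -0.11 and 0.04. Of the other 11 listed genes, 4 were below 1 FPKM in all 6 libraries.

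The de novo methylation genes overlapped between the groups and followed single libraries. Dnmt3b had 30.9, 84.9 and 33.2 FPKM in SSCiPSC and 116, 49.8 and 158 in fiPSC. In order, fiPSC 3, fiPSC 1 and SSCiPSC 2 were high and fiPSC 2, SSCiPSC 3 and SSCiPSC 1 were low, so the groups overlapped (log2 fold change 1.11, SE 0.51, adjusted p = 0.453). Dnmt3a had 10.6, 28.7 and 12.5 and 22.1, 17.4 and 23.1 FPKM, and its cofactor Dnmt3l had 62.0, 109.6 and 81.8 and 86.1, 54.1 and 125. These genes also had SSCiPSC 2, fiPSC 1 and fiPSC 3 as their 3 highest libraries. The same 3 libraries were highest for the pluripotency RNA-binding protein Lin28a, with 65.2, 149 and 73.8 and 86.8, 58.9 and 96.7 FPKM, for the zinc finger factor Sall4, with 59.1, 151 and 76.7 and 77.4, 62.2 and 96.0, and for Id3, a target of BMP signalling, with 5.95, 26.5 and 12.1 and 15.0, 8.54 and 18.7. Over all 14 enzymes and cofactors of DNA methylation the median log2 fold change was -0.02, with 1 gene higher and 2 lower in fiPSC without overlap (9.13% and 14.3% of all genes tested), and it was -0.18 without SSCiPSC 1 and 0.074 without SSCiPSC 2. Tet2, a dioxygenase that oxidises methylcytosine, had 47.4, 65.7 and 48.6 FPKM in SSCiPSC and 40.3, 36.0 and 40.9 in fiPSC. Tet1 overlapped, with 180.1, 205 and 243 and 194, 208 and 191. Tet3 was low in both, with 0.412, 0.484 and 0.659 and 1.14, 1.01 and 1.11. Tet3 was the 1 gene counted as higher. It met the filter of 1 FPKM only through fiPSC and so had to lie higher there, which is no support for a difference. None of the 14 passed limma's adjusted p of 0.05, and 2 of the 14 had an unadjusted p below 0.05 (12.9% of all genes tested).

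A list of signalling targets held genes downstream of LIF, of Nodal and, as the Id genes, of BMP, and shared Klf4 and Socs3 with the naive list and Nodal and Lefty1 with the primed list. Of 9 tested, 4 were lower (14.3% of all genes tested) and 2 higher (9.13%) in fiPSC without overlap, 0 passed limma's adjusted p of 0.05, and 3 had an unadjusted p below 0.05 (12.9% of all). The median log2 fold change was -0.36, and -0.27 without SSCiPSC 2 and -0.23 without SSCiPSC 3. Smad7, an inhibitor of Smad signalling, had 31.2, 43.2 and 32.1 FPKM in SSCiPSC and 22.4, 25.4 and 27.3 in fiPSC. Skil, a Smad corepressor, had 33.4, 21.7 and 30.8 and 42.0, 35.0 and 38.6, in the other direction. The groups did not overlap for either gene.

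**Figure D3:**
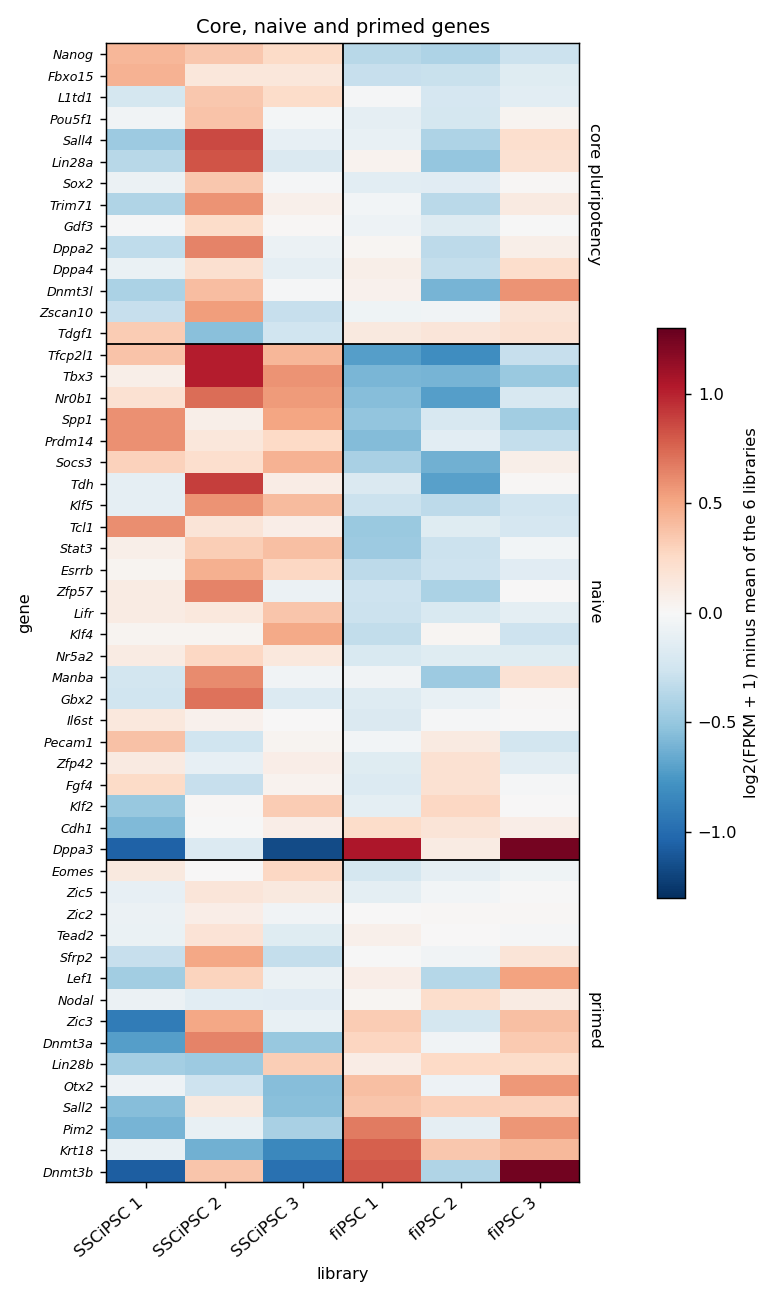
Tested genes of the core pluripotency, naive and primed lists (rows, sorted within each list by fold change) in the 6 iPSC libraries (columns), as log2(FPKM + 1) minus the gene's mean of the 6 libraries (red higher, blue lower, colour limits at 1.3). Naive genes at the top of their block are red in SSCiPSC and blue in fiPSC, Dppa3 shows the opposite, and Dnmt3b and Lin28a follow single libraries.

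To compare transcripts of the SSC libraries in both iPSC, 233 genes were taken that had at least 10 FPKM in each SSC library and at least 20 times the mean of the 6 iPSC libraries, a choice that weights both iPSC groups alike. The choice itself fixes a level in iPSC far below that of SSC and leaves out any gene that stayed high in iPSC. The set was not one of germ cell genes alone. It held 10 genes of the 3 germ line lists, among them Gfra1, Ret and Zbtb16 (433, 536 and 356 FPKM in sum in SSC), and 15 of the lists of somatic cells, with a sum of 1536, 1699 and 2222 FPKM. Of the latter, 7 were Sertoli genes, among them Clu with 713, 645 and 538 FPKM in SSC, and 2 each were Leydig genes and the mast cell proteases Cma1 and Tpsab1. The other genes were mostly in no list. In the iPSC the germ line genes summed to 5.82, 6.01 and 5.69 FPKM in SSCiPSC and 5.87, 5.14 and 8.92 in fiPSC, and the somatic genes to 11.2, 6.99 and 8.97 and 10.7, 8.15 and 12.3, so the groups overlapped for both. How much of the whole set came from each cell type was not tested. Of the 233, 160 were below 1 FPKM in all 6 libraries and 14 were listed at 0 in all 6. Their summed level was 182, 151 and 207 FPKM in SSCiPSC and 190.0, 145 and 209 FPKM in fiPSC, against 9828, 10219 and 11608 FPKM in SSC. The sums of the 2 iPSC groups overlapped. The median difference between fiPSC and SSCiPSC was 0.01 on the log2(FPKM + 1) scale, between 0.0031 without fiPSC 3 and 0.0525 without fiPSC 2 when a library was left out, and 0.058 with a pseudocount of 0.1. The pseudocount of 1 draws differences of genes below 1 FPKM towards 0. In SSCiPSC, the iPSC made from SSC, 4 of these genes (1.72%) were higher than in fiPSC without overlap. Of all 12976 named genes, 11.7% were lower in fiPSC in that way. In fiPSC, 31 (13.3%) were higher, where 9.78% of all named genes were. Most of the 233 were too low to be tested, so all named genes are not a matched background. Of the 1516 named genes lower in fiPSC without overlap 1451 were tested ones, and of the 1269 higher 927 were. Genes too low to be tested were thus mostly on the higher side, and the shares are not read as a trait of SSC genes. Of the 48 tested genes, 0 passed limma's adjusted p of 0.05. The 4 genes on the SSCiPSC side, named after their values were seen, were Thbs1, Atp1b2, Edn1 and Gpm6b. Thbs1 (thrombospondin 1) had 9.04, 9.30 and 15.8 FPKM in SSCiPSC, 6.48, 2.52 and 8.47 in fiPSC and 247, 218 and 293 in SSC. Atp1b2, a sodium pump subunit, had 2.08, 1.70 and 1.90 FPKM in SSCiPSC and 0.718, 0.894 and 0.835 in fiPSC. Edn1 and Gpm6b were below 1 FPKM in all iPSC libraries.

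**Figure D4:**
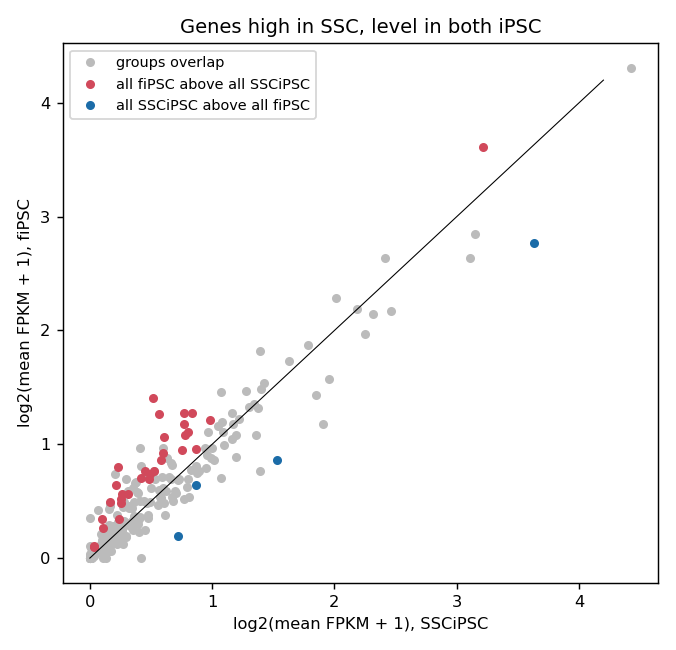
Mean level of each of the 233 genes high in SSC, as log2(mean FPKM + 1), in SSCiPSC (x axis) and fiPSC (y axis), with the line of equality. Grey genes overlapped between groups, 31 red genes were higher in all fiPSC and 4 blue genes higher in all SSCiPSC, and most lie below 1 on both axes.

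Germ line genes did not separate the groups as a list. Of 24 listed spermatogonial genes, 13 were tested, 3 were lower (14.3% of all genes tested) and 2 higher (9.13%) in fiPSC without overlap. Of the 13, 3 had an unadjusted p below 0.05 (12.9% of all). Kit was the 1 that passed with 1 locus per gene, where 0.483% of all genes tested did. The median log2 fold change was -0.23, and ran from -0.35 without SSCiPSC 1 to -0.12 without SSCiPSC 2. Uchl1, a ubiquitin hydrolase of spermatogonia, had 52.8, 63.8 and 57.0 FPKM in SSCiPSC and 39.2, 45.8 and 39.7 in fiPSC (adjusted p = 0.258). Nanos3, an RNA-binding protein of germ cells, had 2.19, 3.59 and 3.28 and 3.63, 6.04 and 5.94, in the other direction. Etv5, Id4, Dmrt1 and Stra8 overlapped. Of 23 germ line genes that DNA methylation silences in somatic cells, 20 were tested, 2 were lower (14.3% of all genes tested) and 1 higher (9.13%) in fiPSC without overlap. Of the 20, 0 passed limma's adjusted p of 0.05 and 1 had an unadjusted p below 0.05 (12.9% of all). That was Dazl, an RNA-binding protein needed for germ cell entry, with 34.9, 42.3 and 36.2 FPKM in SSCiPSC, 17.4, 15.3 and 25.8 in fiPSC and 194, 263 and 174 in SSC (log2 fold change -0.95, SE 0.20, adjusted p = 0.205). No fiPSC library reached the lowest SSCiPSC library. Ddx4, Piwil2, Mael, Sycp3 and Hormad1 overlapped, and the median of the list was -0.14, and -0.27 without SSCiPSC 2, -0.23 without fiPSC 2, -0.22 without fiPSC 3, -0.066 without SSCiPSC 1 and -0.058 without fiPSC 1.

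Cyct was the 1 gene of its list that passed, where 0.0678% of loci and 0.483% of genes did. Its list was chosen with earlier results of these data known, so its holding a gene that passed is no support. The list held germ cell isoforms of energy enzymes, of which 10 were tested and 1, Cyct, was lower without overlap (14.3% of all genes tested), with a median log2 fold change of 0.00, and of 0.22 without fiPSC 2. Cox6b2, a testis subunit of cytochrome oxidase, had 46.9, 39.3 and 49.8 FPKM in SSCiPSC and 41.7, 49.3 and 36.8 in fiPSC. Slc2a3, a glucose transporter, had 306, 262 and 343 and 248, 245 and 270.4. Ldhc, Pdha2 and Slc25a31, which spermatocytes use in place of widely expressed isoforms, had group means between 1.27 and 2.67 FPKM and overlapped. Of 14 somatic isoforms, 2 were lower in fiPSC without overlap (14.3% of all genes tested), Pdha1 and Cox7b. Of the 14, 0 passed limma's adjusted p of 0.05 and 1 had an unadjusted p below 0.05 (12.9% of all). Their median log2 fold change was 0.01, and -0.13 without SSCiPSC 2.

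Fibroblast genes overlapped between the groups, with 1 exception. Of 30 listed fibroblast and feeder genes, 22 were tested, 0 were higher and 1 was lower in fiPSC without overlap (9.13% and 14.3% of all genes tested), which was Zeb1, with a median log2 fold change of -0.16. None passed limma's adjusted p of 0.05 and 0 had an unadjusted p below 0.05 (12.9% of all genes tested). Summed over the list, the level was 191, 225 and 288 FPKM in SSCiPSC and 218, 176 and 231 in fiPSC. Fn1 (fibronectin), which pluripotent cells also express, gave most of it, with 118, 170.3 and 195 and 146, 142 and 141 FPKM. Without Fn1 the sum was 72.7, 55.0 and 92.6 FPKM in SSCiPSC and 72.4, 33.8 and 90.0 in fiPSC. fiPSC 2 was lowest of the 6 libraries for 17 of the 22 genes, and SSCiPSC 3 was highest for 11. Col1a2, a chain of type I collagen, had 5.86, 4.77 and 9.14 FPKM in SSCiPSC and 5.82, 1.63 and 8.36 in fiPSC. Postn (periostin) had 5.58, 2.47 and 5.23 and 3.14, 1.19 and 4.24. Thy1, a fibroblast surface marker, had 2.03, 2.19 and 5.05 and 6.23, 1.56 and 3.91. The median of the list was 0.09 without fiPSC 2, -0.39 without fiPSC 3, -0.25 without SSCiPSC 2 and -0.044 without SSCiPSC 3. These genes are made by feeder fibroblasts as well as by fibroblasts of origin, and the 2 sources cannot be told apart. Fewer cells of a type and less RNA per cell also cannot be told apart in such bulk libraries.

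Hox genes, which fibroblasts keep on according to their place in the body, were almost silent in both iPSC. Of 39 listed Hox genes, 16 had a locus, 15 of these were below 1 FPKM in all 6 libraries and 3 were listed at 0 in all 6. Only Hoxb9 was tested, with 8.88, 9.26 and 7.43 FPKM in SSCiPSC and 7.54, 10.6 and 8.88 in fiPSC, which overlapped.

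Markers of other cells of testis and blood were few among the genes tested, and Rhox5, Vwf and Kit were the ones without overlap. All 4 Leydig genes with a locus were below 1 FPKM in all 6 iPSC libraries and summed to at most 0.358 FPKM, against 164, 132 and 255 in SSC. Of 11 Sertoli genes with a locus, 7 were below 1 FPKM in all iPSC and 3 were tested. Rhox5, a homeobox gene that pluripotent cells also express, was the most abundant, with 296, 211 and 272 FPKM in SSCiPSC and 162, 172 and 197 in fiPSC, and it was the 1 of the 3 that was lower without overlap (14.3% of all genes tested). Of 6 tested peritubular and endothelial genes, 1, Vwf, was higher in fiPSC without overlap (9.13% of all genes tested), with 2.43, 1.72 and 1.85 and 3.29, 3.47 and 3.77 FPKM. Of 3 tested macrophage and blood genes Kit was the only one without overlap (14.3% of all genes tested were lower). Of 20 early lineage genes, 3 were tested and none was without overlap, and 3 genes of the two-cell-like state with a locus summed to at most 1.32 FPKM and were not tested.

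Imprinted genes were compared because the donors start from different imprints. Of 33 listed paternally expressed genes 14 were tested, with a median log2 fold change of 0.01. Of these 2 were higher (9.13% of all genes tested) and 4 lower (14.3%) in fiPSC without overlap, 0 passed limma's adjusted p of 0.05 and 4 had an unadjusted p below 0.05 (12.9% of all). Peg10, a gene of retrotransposon origin used in placenta, had 9.32, 15.5 and 12.3 FPKM in SSCiPSC and 29.1, 20.2 and 27.1 in fiPSC (log2 fold change 0.99, SE 0.21, adjusted p = 0.209). Sfmbt2, a Polycomb group gene, had 15.5, 8.69 and 15.3 and 27.2, 25.7 and 26.0 (log2 fold change 0.99, SE 0.22). Every fiPSC library was above every SSCiPSC library for both, whereas Plagl1, with 2.08, 4.12 and 2.68 and 1.46, 1.46 and 2.02, and Impact, with 78.2, 60.8 and 75.1 and 57.2, 54.1 and 52.6, lay the other way.

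Maternally expressed genes had a median log2 fold change of 0.11 over 20 tested of 35 listed. The median was 0.21 without SSCiPSC 1. Of the 20, 4 were higher (9.13% of all genes tested) and 1 lower (14.3%) in fiPSC without overlap, 0 passed limma's adjusted p of 0.05 and 4 had an unadjusted p below 0.05 (12.9% of all). Phlda2, which limits placental growth, had 19.8, 13.6 and 7.99 FPKM in SSCiPSC and 29.1, 39.0 and 29.2 in fiPSC (log2 fold change 1.25, SE 0.30, adjusted p = 0.237). Cdkn1c, an inhibitor of cyclin-dependent kinases from the same imprinted cluster, had 1.11, 0.908 and 1.32 and 2.45, 2.70 and 4.31 FPKM (log2 fold change 0.95, SE 0.22). The other 2 higher genes were Atp10a and Ppp1r9a. The noncoding RNAs Meg3, Rian and Mirg of the Dlk1-Dio3 cluster, whose loss is known in some iPSC, were expressed in all 6 libraries, with Meg3 at 58.4, 56.3 and 89.4 FPKM in SSCiPSC and 57.4, 71.9 and 69.2 in fiPSC. H19, a noncoding RNA of the Igf2 cluster, had 8.01, 5.53 and 9.04 FPKM in SSCiPSC and 16.6, 6.66 and 15.6 in fiPSC, and the groups overlapped through fiPSC 2.

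Pttg1 was the 1 gene of a list of 24 genes of securin and mitosis that passed, where 0.0678% of loci and 0.483% of genes did. That list was chosen with earlier results of these data known, so its holding a gene that passed is no support. The 22 tested genes had log2 fold changes between -1.41 and -0.03, with a median of -0.16, or -0.19 without SSCiPSC 2, and all were below 0. Of these, 9 were lower in fiPSC without overlap (14.3% of all genes tested) and 0 were higher (9.13%). For the 5924 genes with a group mean of at least 10 FPKM, 1184 were lower and 321 higher without overlap. By limma, 7 of the 22 had an unadjusted p below 0.05 (12.9% of all genes tested). The mitotic cyclins Ccnb1 and Ccnb2 had log2 fold changes of -0.38 (SE 0.11) and -0.37 (SE 0.11). The cohesin subunit Rad21 had -0.34 (SE 0.10). Espl1, the separase that securin inhibits, had 33.5, 61.0 and 46.0 FPKM in SSCiPSC and 41.7, 36.5 and 44.2 in fiPSC and overlapped. The median of the list was -0.06 after quantile normalization and -0.21 after median-ratio scaling, and the medians over all genes tested were -0.02 and -0.08.

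Effects of single libraries beyond the Y were smaller. At a 2-fold gap in place of 4-fold, 27 genes stood apart in 1 library, and SSCiPSC 2 held 18 of them, 4 above and 14 below the others. The genes named here were read from this wider gap. Anxa2, a membrane-binding annexin, had 126, 24.2 and 56.6 FPKM in SSCiPSC and 65.4, 95.4 and 56.1 in fiPSC. Bnip3, a mitophagy receptor induced by low oxygen, had 118, 34.1 and 76.5 and 105, 100.05 and 95.8. Mt1, a metallothionein, had 132, 54.3 and 150.4 and 235, 219 and 216. SSCiPSC 2 was lowest for all 3. Pomk, a kinase of dystroglycan on chromosome 8, ran across the groups, with 36.6, 0.233 and 13.8 FPKM in SSCiPSC and 0.243, 8.84 and 2.30 in fiPSC. Thus 1 library of each group was below 1 FPKM for Pomk, and SSCiPSC 1 was the highest. The first 2 principal components of the 6 libraries held 29.7% and 26.1% of the variance, and SSCiPSC 2 had the largest loading on the first (-0.73). The 3 fiPSC libraries had positive loadings on it, and SSCiPSC 1 lay near 0 (0.04).

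Whole chromosomes were compared between libraries by the median, over genes with a mean of at least 5 FPKM, of the log2 ratio to the median of the 6 libraries. Chromosome 14 stood at 0.28 in SSCiPSC 1 and at 0.14 in fiPSC 2, and between -0.11 and -0.03 in the other 4 libraries. Chromosome 8 stood at -0.11, -0.12 and 0.03 in SSCiPSC 1, 2 and 3 and at 0.02, 0.13 and -0.02 in fiPSC 1, 2 and 3. Over all chromosomes the same median was 0.01, 0.09 and 0.02 in SSCiPSC and -0.02, -0.05 and -0.01 in fiPSC. With a mean of at least 20 FPKM, chromosome 8 stood at -0.12, -0.05 and 0.05 in SSCiPSC and at 0.02, 0.08 and -0.03 in fiPSC, where all chromosomes together stood at 0.13 in SSCiPSC 2 and -0.09 in fiPSC 2. Of 542 genes tested on chromosome 8, 116 (21.4%) were higher in all fiPSC than in all SSCiPSC, against 8.44% of the 9612 genes tested elsewhere, and 2 of the 49 genes that passed with 1 locus per gene lay on it. The Y stood at -7.82 in SSCiPSC 2. DNA was not measured, and the part of chromosome number in these differences was not tested.

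**Figure D5:**
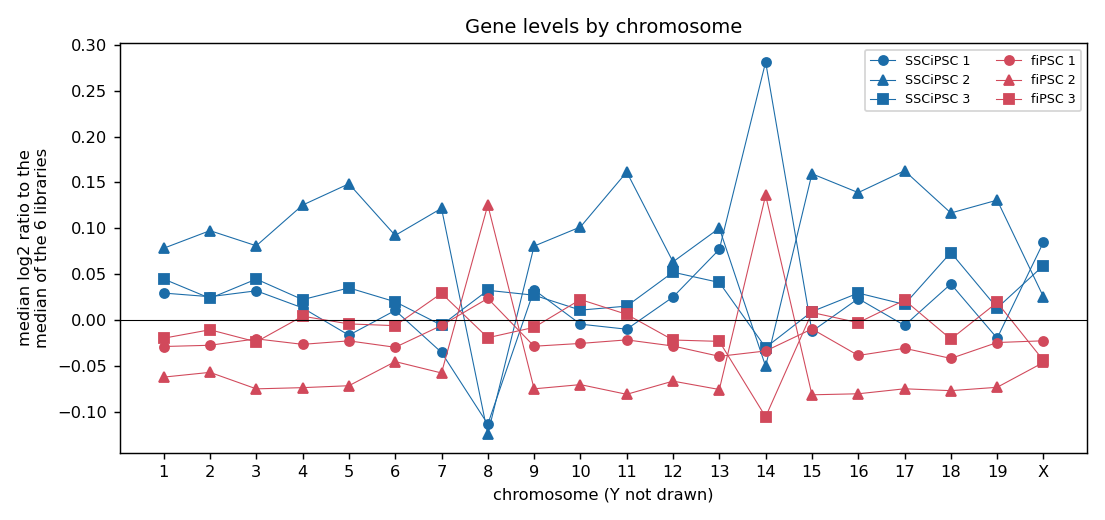
Median log2 ratio of each library to the median of the 6 iPSC libraries, by chromosome (Y not drawn), over genes with a mean of at least 5 FPKM (blue SSCiPSC, red fiPSC, symbols for libraries 1 to 3). SSCiPSC 1 rises to 0.28 and fiPSC 2 to 0.14 on chromosome 14, and on chromosome 8 SSCiPSC 1 and 2 lie at -0.11 and -0.12 and fiPSC 2 at 0.13.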

How the data were processed

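RNA-seq libraries of SSC, SSCiPSC and fiPSC (3 each) were grouped by the sample labels. The authors deposited FPKM values, 1 per locus and library, made from paired end reads. The submitters' processing notes name Trimmomatic 0.32, TopHat2 2.0.9, Bowtie2 2.1.0, Cufflinks 2.2.1 and Cuffdiff, and the build mm9, but the coordinates matched GRCm38 genes, since 98.1% of the stranded loci that began and ended no more than 300 bp from a gene's ends had its strand. The annotation, and whether the FPKM were scaled between libraries, are not given in the sources used here. The labels name a kit that depletes ribosomal RNA together with a stranded mRNA kit. No reads were used, and 0 per-sample columns were left out. The gene names printed in the table were not used.

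Of 54914 loci, 1 with a blank value was dropped. Stranded loci were named where at least 50% of the locus or of the gene overlapped on the same strand. Of all loci 70.2% had no strand, and 266 named genes came from such loci, among them Cldn3, Cldn4, Cldn9 and Gm12355. The design had asked for both overlaps, which lost genes in loci that share an interval, and both overlaps name 10932 genes in place of 12976. Depth was estimated from the FPKM steps of single fragments in loci of 600 to 6000 bp. At most 1 locus had an equal value above 0 in a pair of libraries.

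limma 3.58.1 in R 4.3.3 (lmFit, eBayes with a trend) was run on log2(FPKM + 1), a pseudocount of 1, over the 33948 loci that reached 1 FPKM in 3 or more of the 6 iPSC libraries, with Benjamini-Hochberg adjustment at 0.05, and again over 1 locus per gene. On simulated data for this comparison, 82% of 200 loci changed by 2 on the log2 scale were recovered among 33948, with 4.65% false calls. The changed loci were drawn from those with a mean log2(FPKM + 1) above 3, and noise was drawn independently for each library. Recovery at lower loci, or with effects of whole libraries, was not tested. With 3 against 3 libraries an exact permutation test cannot go below p = 0.1 and was not used. Genes named are those past the threshold in either fit, the 10 rising and 10 falling genes with the largest fold change at a group mean of at least 10 FPKM without overlap, members of 22 gene lists (402 genes, 307 with a locus, 218 tested) and the genes at which 1 library stood apart. The members and lists were chosen with earlier results of these data known. Alternatives were the pseudocount, filters, scaling, eBayes settings, all 9 libraries, a replicate block, stranded loci, other thresholds and each library left out. Naming by both overlaps, and the block, left-out libraries and threshold with 1 locus per gene, were added after seeing the data. Sequence came from RefSeq (GRCm38.p6). Python 3.11.15, numpy 2.4.6, pandas 2.3.3 and matplotlib 3.10.9 were used.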

Additional observations from a re-analysis of the deposited data

How the results depend on the processing

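Of 273 named genes with a test, none that passed changed direction under any alternative run. The number of loci that passed (23) was 10 with a mean of at least 5 FPKM, 11 with all 9 libraries, 43 at an adjusted p of 0.1, 49 with 1 locus per gene, and from 2 to 10 with each library left out. The number of named genes that passed over all loci (3) was 0 with all 9 libraries, 25 with stranded loci only, 49 with 1 locus per gene, 8 at an adjusted p of 0.1, and from 0 to 2 with each library left out. With 1 locus per gene (49), it was 239 at an adjusted p of 0.1 and from 0 to 114 with each library left out. Loci whose groups did not overlap numbered 6326, and 2378 with 1 locus per gene. Genes at which 1 library stood apart by 4-fold (4) became 27 at 2-fold and 1 with at least 50 FPKM. Without 1 library, 9 or 7 of the 23 loci no longer met the filter on low values. Other causes of these moves were not tested.

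With the replicate number as a block, the replicate block fit called 6 loci, 0 named genes over all loci and 3 with 1 locus per gene. Samples with the same number had correlations of -0.05, -0.24 and -0.09 across genes, and those with unlike numbers from -0.14 to 0.20. Deviations within a group of 3 are tied to each other, so these values cannot show whether the numbers pair the samples.

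Medians of lists moved by more than the spread between replicates after quantile normalization for naive genes (-0.34) and mitosis (-0.063), and after median-ratio scaling for mitosis (-0.21). With each library left out the medians ran from -0.50 to -0.35 for naive, 0.12 to 0.38 for primed, -0.32 to 0.088 for core, -0.42 to -0.23 for LIF and Nodal targets, -0.20 to -0.14 for mitosis, -0.39 to 0.094 for fibroblast, -0.35 to -0.12 for spermatogonial, -0.27 to -0.058 for silenced germ line genes, -0.030 to 0.22 for germ cell and -0.13 to 0.051 for somatic energy isoforms, 0.088 to 0.89 for early lineage, 0.082 to 0.21 for maternally expressed, and -0.033 to 0.35 for peritubular and endothelial genes. The median difference of genes high in SSC was 0.058 with a pseudocount of 0.1. Depth limits iPSC values below about 0.231 FPKM. For SSC 1, 2 and 3 the same limit lay higher, at 1.7, 0.65 and 2.17 FPKM.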
